A study of Mus musculus with 4 samples.

Results

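The genes described here encode the FACT complex, H2A histone variants and histone chaperones, 10 genes chosen by name from the 25907 genes that could be named in the deposited expression table. They are *Supt16* and *Ssrp1* (FACT), *H2afx*, *H2afz*, *H2afv* and *H2afy* (H2A variants), *Nap1l1* (a chaperone of H2A-H2B dimers) and *Asf1a*, *Hira* and *Daxx* (chaperones of H3-H4). In newer nomenclature *Supt16* is *Supt16h*, *H2afx* is *H2ax*, *H2afz* is *H2az1*, *H2afv* is *H2az2* and *H2afy* is macroH2A1. All 10 were expressed, meaning at least 1 RPKM in at least 1 library, and 11370 of the named genes were. RPKM corrects the reads of a transcript for how long it is and how deeply the library was sequenced, so that levels of different genes can be set side by side.

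Total RNA was sequenced from immortalized mouse embryonic fibroblasts (MEF), cultured connective tissue cells derived here from C57BL/6 embryos at embryonic day 15.5. There were 4 libraries, 1 for each combination of genotype and treatment: *Hmga2*+/+ Ctrl, *Hmga2*+/+ TGFB1, *Hmga2*-/- Ctrl and *Hmga2*-/- TGFB1. The *Hmga2*-/- cells lack the chromatin protein HMGA2, and the genotype field of their labels reads Hmga-/- where the title reads *Hmga2*-/-. Cells of all 4 conditions were kept overnight in medium with 1% serum, and the TGFB1 cells then received the human cytokine TGFB1 at 10 ng/ml for 24 h, whereas Ctrl cells received water. Lines of both genotypes were immortalized with the virus SV40, whose large T antigen inactivates p53 and RB. Whether the lines are clonal or pooled from several embryos is not given in the sources used here, so that a genotype and a cell line cannot be told apart.

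Between 56140000 and 57300000 mapped reads lay behind the 4 libraries. *Hmga2* itself had 14.8 and 40.7 RPKM in the *Hmga2*+/+ Ctrl and TGFB1 libraries and 0 RPKM in both *Hmga2*-/- libraries, and the TGFB1 targets *Ctgf* and *Smad7* rose under TGFB1 in both genotypes (*Ctgf* had 13.2 and 173 RPKM in the *Hmga2*+/+ and 24.9 and 359 RPKM in the *Hmga2*-/- Ctrl and TGFB1 libraries). All 7 fibroblast markers had at least 1 RPKM in every library, with a summed level of 1656 to 2108 RPKM. Of the other cell types the culture could hold, the summed level was 0.403 to 1.04 RPKM for 4 epithelial markers, 1.14 to 7.46 RPKM for 3 endothelial markers (of which *Pecam1* and *Cdh5* stayed at or below 0.048 RPKM, and *Kdr* was higher in both TGFB1 libraries) and 1.26 to 1.63 RPKM for 3 immune markers (of which *Ptprc* and *Adgre1* stayed at or below 0.007 RPKM). Skeletal muscle markers reached 0.052 RPKM and glial markers 0.335 RPKM in sum. With 1 library per condition, differences could not be set against a spread between replicates, and p-values are not given. Intervals are exact 95% intervals of the ratio of 2 read counts and cover counting error only. A gene was said to have risen or fallen where its RPKM differed at least 1.5-fold.

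A nucleosome wraps DNA around 2 H2A-H2B dimers and an H3-H4 tetramer. FACT, a dimer of SUPT16 and SSRP1, loosens and restores nucleosomes by holding H2A-H2B while RNA polymerase II passes, and NAP1L1 carries H2A-H2B to and from DNA. H2A variants can replace canonical H2A outside DNA replication. H2A.Z, made from *H2afz* and *H2afv*, marks nucleosomes next to transcription start sites, H2A.X carries a serine near its end that kinases such as ATM phosphorylate, and macroH2A1, made from *H2afy*, bears a large globular domain and is found in repressed chromatin. ASF1A hands H3-H4 to the assembly factors, HIRA deposits the variant H3.3 in active genes, and DAXX deposits H3.3 in repeats and telomeres together with ATRX.

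The last 8 codons of the coding sequence are shown for *H2afx*, *H2afz* and *H2afv*, because the phosphorylated serine of H2A.X lies there and because both H2A.Z genes encode nearly the same protein. They were read from the reference transcripts of GENCODE vM21 on mm10. Capitals mark the codons of the last serine followed by a glutamine. That serine is number 139 when the starting methionine is not counted.
H2afx, chr9:44335167-44335190, plus strand: gcctcgcaggccTCTCAGgagtac
H2afz, chr3:137866421-137866444, plus strand: aagaaaggacaacagaagactgtt
H2afv, chr11:6428374-6428397, minus strand: aagaaggggcagcagaaaactgct
Among the 3 ends, only that of *H2afx* holds serine-glutamine pairs. The *H2afx* coding sequence has 2 such pairs, and the earlier one, left in lower case, lies in the same end. Over 384 coding bases, *H2afz* and *H2afv* were identical at 304 (79.2%). Of their 128 codons, 55 were identical, 70 differed and encoded the same amino acid, and 3 encoded another amino acid. The longest run of bases shared by the 2 transcripts was 14. A trimmed read had at most 70 bases, and reads of that length from either gene could be told apart.

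The 250 bases before the transcription start are shown for *H2afv* and *H2afz*, whose RNA levels differed in response, and for *Supt16* and *Ssrp1*, the 2 subunits of FACT. They are from RefSeq on GRCm38.p6, which is mm10. Capitals mark motifs found on either strand: the CCAAT box (CCAAT, or ATTGG when reversed), the GC box (GGGCGG, or CCGCCC), the E-box (CACGTG) and the SMAD-binding CAGA motif (CAGAC, or GTCTG).
H2afv, chr11:6444444-6444693, minus strand: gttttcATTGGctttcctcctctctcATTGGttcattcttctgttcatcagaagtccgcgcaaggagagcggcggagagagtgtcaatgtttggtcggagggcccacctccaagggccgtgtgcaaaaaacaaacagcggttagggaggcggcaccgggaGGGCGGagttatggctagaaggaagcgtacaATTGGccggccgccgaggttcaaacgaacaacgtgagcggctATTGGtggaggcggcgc
H2afz, chr3:137864237-137864486, plus strand: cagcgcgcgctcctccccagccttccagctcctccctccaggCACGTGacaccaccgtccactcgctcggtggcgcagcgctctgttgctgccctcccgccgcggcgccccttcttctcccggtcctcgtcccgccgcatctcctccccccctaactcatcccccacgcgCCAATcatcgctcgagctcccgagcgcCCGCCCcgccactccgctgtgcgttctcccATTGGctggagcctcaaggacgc
Supt16, chr14:52197240-52197489, minus strand: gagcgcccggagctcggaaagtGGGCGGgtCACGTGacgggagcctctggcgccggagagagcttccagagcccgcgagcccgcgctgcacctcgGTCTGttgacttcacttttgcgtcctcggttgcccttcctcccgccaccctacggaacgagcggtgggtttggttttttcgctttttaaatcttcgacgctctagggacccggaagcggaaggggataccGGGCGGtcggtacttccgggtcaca
Ssrp1, chr2:85036870-85037119, plus strand: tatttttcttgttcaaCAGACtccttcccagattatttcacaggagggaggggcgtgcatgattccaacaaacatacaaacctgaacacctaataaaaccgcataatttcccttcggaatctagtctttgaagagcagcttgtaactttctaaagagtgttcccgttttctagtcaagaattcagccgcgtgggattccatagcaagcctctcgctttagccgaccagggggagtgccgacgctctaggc
The *H2afv* window held 4 CCAAT boxes and 1 GC box, and the *H2afz* window held 2 CCAAT boxes, 1 GC box and 1 E-box. Of 32851 RefSeq promoters searched over the same length, 33.8% held at least 1 CCAAT box, 10.1% at least 2 and 0.84% at least 4. Both FACT windows held 1 CAGA motif, which 42.2% of promoters hold, and they shared no other motif of those searched. The *Supt16* window also held 2 GC boxes (32.7% of promoters hold 1 or more) and 1 E-box (6.02% do). An E2F site spelled TTTCCCGC or TTTGGCGC, held by 1.3% of promoters, was in none of the 4 windows. These matches describe letters in a window and say nothing of binding.

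The RNA of both FACT subunits was abundant and the subunits lay side by side. *Supt16* (uc007tor.1, chr14:52160419-52197239, 26 exons in the reference transcript) had 102 RPKM in the *Hmga2*+/+ Ctrl, 131 RPKM in the *Hmga2*+/+ TGFB1, 113 RPKM in the *Hmga2*-/- Ctrl and 131 RPKM in the *Hmga2*-/- TGFB1 library. *Ssrp1* (uc008kju.2, chr2:85037120-85047114, 17 exons) had 106, 132, 106 and 135 RPKM in the same order of libraries. For both genes the 2 TGFB1 libraries were above the 2 Ctrl libraries. The ratio of *Supt16* to *Ssrp1* RPKM was 0.968, 0.993, 1.06 and 0.972 in the 4 libraries, so the subunits were close to each other in each. In the *Hmga2*+/+ Ctrl library *Supt16* was higher than 98.5% of the expressed genes, and *Ssrp1* was as well.

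The H2A variants covered a wide range of levels. *H2afz* (uc008rmo.2, chr3:137864487-137866922) had 69.0, 70.9, 67.3 and 66.3 RPKM in the *Hmga2*+/+ Ctrl, *Hmga2*+/+ TGFB1, *Hmga2*-/- Ctrl and *Hmga2*-/- TGFB1 libraries, the highest of the 4 variants in each library. *H2afv* (uc007hyp.2, chr11:6427226-6444443) had 14.0 and 6.79 RPKM in the *Hmga2*+/+ Ctrl and TGFB1 libraries and 13.1 and 5.55 RPKM in the *Hmga2*-/- Ctrl and TGFB1 libraries. *H2afv* was thus lower in both TGFB1 libraries than in both Ctrl libraries, whereas the 4 libraries of *H2afz* lay between 66.3 and 70.9 RPKM. *H2afx* (uc009pcy.1, chr9:44334715-44336073), a gene of 1 exon, had 28.6, 25.8, 24.3 and 23.9 RPKM, with the *Hmga2*+/+ Ctrl library highest. *H2afy* (uc007qsf.2, chr13:56073622-56135550) had 25.3, 29.1, 23.1 and 28.6 RPKM, with both TGFB1 libraries above both Ctrl libraries. Of the summed RPKM of these 4 variant genes, *H2afz* made up 50.4% to 53.5% in the 4 libraries. The share of *H2afv* was 10.2% in both Ctrl libraries, 5.12% in the *Hmga2*+/+ TGFB1 and 4.46% in the *Hmga2*-/- TGFB1 library.

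Among the chaperones *Nap1l1* (uc007had.2, chr10:111473192-111498150) had 58.2, 73.1, 63.7 and 88.5 RPKM in the *Hmga2*+/+ Ctrl, *Hmga2*+/+ TGFB1, *Hmga2*-/- Ctrl and *Hmga2*-/- TGFB1 libraries, and each TGFB1 library was above each Ctrl library. The H3-H4 chaperones were lower. *Asf1a* (uc007fbr.1, chr10:53596961-53609215) had 9.59, 10.1, 10.5 and 10.4 RPKM, *Daxx* (uc008caa.2, chr17:33909445-33915590) had 14.5, 14.6, 15.5 and 13.8 RPKM and *Hira* (uc007yoq.1, chr16:18876750-18970308) had 6.07, 6.61, 5.54 and 6.16 RPKM. The *Daxx* to *Hira* ratio lay between 2.20 and 2.79. *Hira* was higher than 44.6% to 50.3% of the expressed genes, near the middle of what these cells express.

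**Figure D1:**
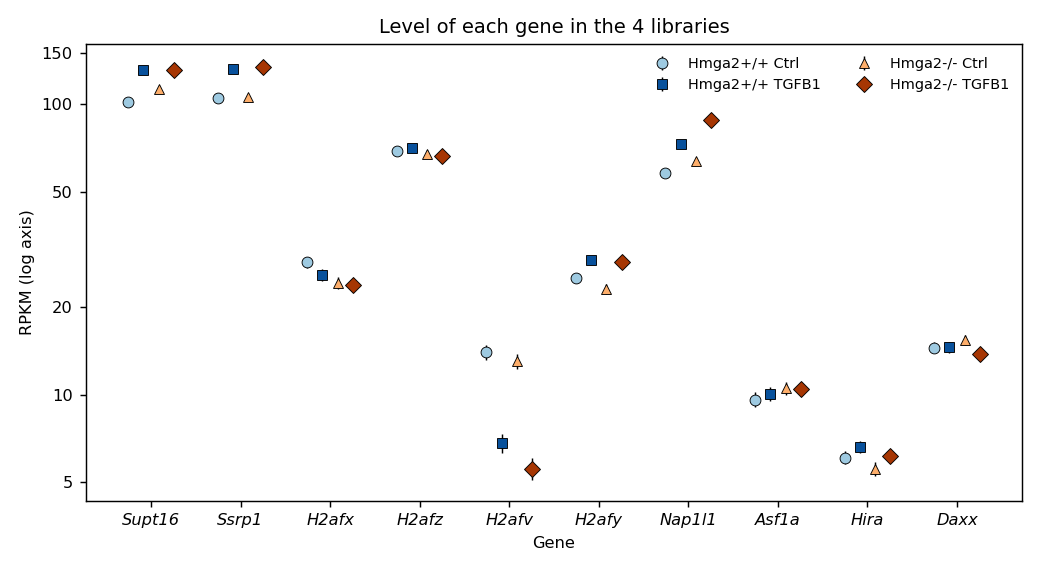
RPKM (log axis) of the 10 genes in the 4 libraries, 1 point per library, with bars for the 95% counting interval of the level, often smaller than the point. *H2afv* sits at 13.1 to 14.0 RPKM in both Ctrl libraries and at 5.55 to 6.79 RPKM in both TGFB1 libraries, and no other gene shows a gap of that size.

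In the *Hmga2*+/+ Ctrl library the order of levels was *Ssrp1*, *Supt16*, *H2afz*, *Nap1l1*, *H2afx*, *H2afy*, *Daxx*, *H2afv*, *Asf1a* and *Hira*. Of the 9 pairs of neighbours in this order, only *Daxx* and *H2afv* had counting intervals that overlapped. The order depends on the transcript that stands for a gene, here the one with the longest gene body. In the same library *Nap1l1* transcripts reached 102 RPKM, above the 69.0 to 73.6 RPKM of the *H2afz* transcripts. Those of *H2afy* lay between 8.21 and 37.2 RPKM. Under TGFB1, *H2afv* moved from rank 8 to rank 9 in *Hmga2*+/+ and to rank 10, below *Hira*, in *Hmga2*-/- MEF. The intervals of *H2afv* and *Hira* overlapped in both TGFB1 libraries. The pair *Ssrp1* and *Supt16* overlapped in the *Hmga2*+/+ TGFB1 library, as did *Nap1l1* and *H2afz*, and *H2afx* and *H2afy* overlapped in the *Hmga2*-/- Ctrl library.

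The comparison of TGFB1 with Ctrl asked which of these genes respond to the cytokine. In *Hmga2*+/+ MEF 1 of the 10 genes, *H2afv*, fell past 1.5-fold and none rose, whereas 17.7% of all expressed genes fell and 12.1% rose. *H2afv* went to 0.485 times its Ctrl level, a log2 change of -1.04 (interval -1.18 to -0.90) from 1278 reads in Ctrl and 633 in TGFB1, and 7.11% of expressed genes fell as far or farther. In bulk RNA, fewer cells that express a gene and less RNA per cell cannot be told apart. The other H2A.Z gene, *H2afz*, had a log2 change of 0.04 (interval -0.02 to 0.10). The *H2afz* to *H2afv* ratio went from 4.93 to 10.4.

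Both FACT genes were higher in the *Hmga2*+/+ TGFB1 library by less than 1.5-fold. *Supt16* had a log2 change of 0.36 (interval 0.34 to 0.39), or 28.5%, and *Ssrp1* one of 0.32 (interval 0.30 to 0.35), or 25.3%. As high a change or higher was found for 20.8% of expressed genes in the case of *Supt16* and 22.8% in the case of *Ssrp1*. *Nap1l1* had a log2 change of 0.33 (interval 0.29 to 0.37) and *H2afy* one of 0.20 (interval 0.13 to 0.28). *H2afx*, with -0.15 (interval -0.23 to -0.06), was lower by 9.65%. *Hira* had 0.12 (interval 0.02 to 0.22), *Asf1a* 0.07 (interval -0.05 to 0.19) and *Daxx* 0.00 (interval -0.09 to 0.09). The median log2 change was 0.10 over the 10 genes and -0.05 over all expressed genes. Counting intervals lay above 0 for 5 genes, below 0 for 2 and on both sides of 0 for 3.

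In *Hmga2*-/- MEF, *H2afv* was again the only gene of the 10 past 1.5-fold. It fell to 0.425 times its Ctrl level, and the other 9 passed in neither direction. Of all expressed genes 15.9% fell and 13.8% rose. The log2 change of *H2afv* was -1.24 (interval -1.39 to -1.09) from 1203 reads in Ctrl and 514 in TGFB1, which 4.85% of expressed genes matched or exceeded. *H2afz* had -0.02 (interval -0.09 to 0.04), and the *H2afz* to *H2afv* ratio went from 5.16 to 11.9. *Nap1l1* had the largest value above 0, with 0.47 (interval 0.44 to 0.51), followed by *Ssrp1* with 0.34 (interval 0.31 to 0.37), *H2afy* with 0.31 (interval 0.23 to 0.39) and *Supt16* with 0.21 (interval 0.19 to 0.24). *Hira* had 0.15 (interval 0.05 to 0.26) and *Daxx* -0.16 (interval -0.25 to -0.07). *H2afx* at -0.02 and *Asf1a* at -0.01 had intervals on both sides of 0. The median was 0.07 over the 10 genes and 0.01 over all expressed genes.

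**Figure D2:**
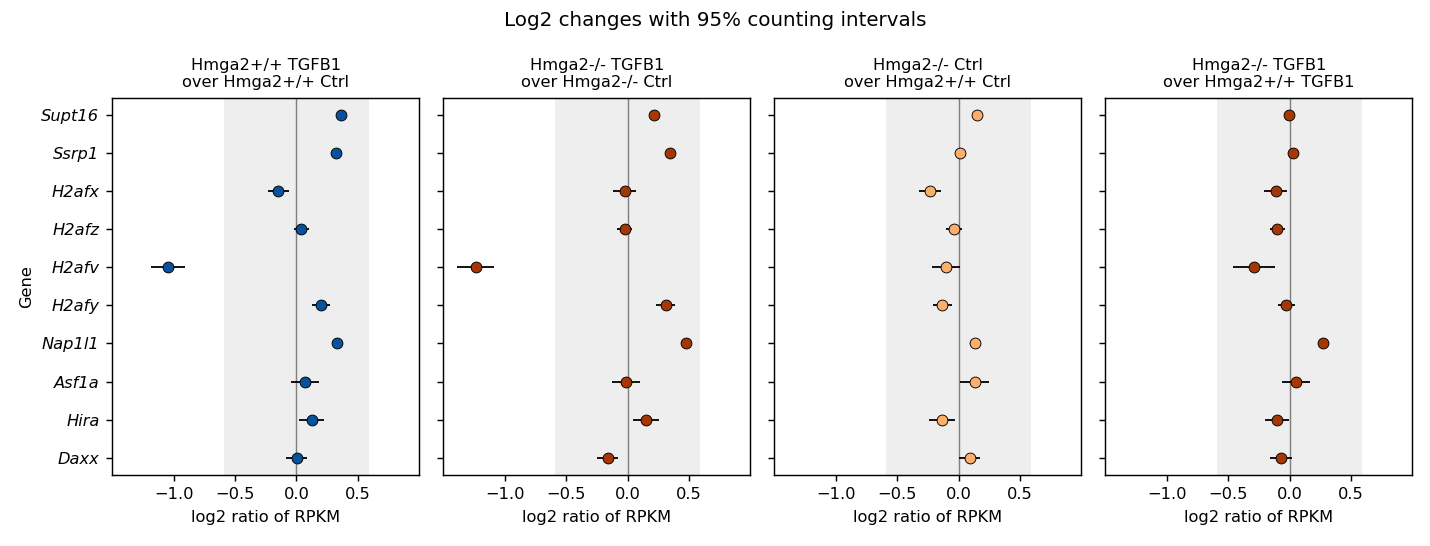
Log2 ratio of RPKM of each of the 10 genes in the 4 comparisons, named above each panel, with bars for the exact 95% counting interval. The grey band spans changes below 1.5-fold, and *H2afv* at -1.04 and -1.24 is the point outside it, in both TGFB1 comparisons.

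The 2 genotypes were next compared directly, with the question of whether the RNA of these genes differs where HMGA2 is lacking. Of their proteins, the study follows SUPT16, SSRP1 and H2A.X on chromatin with antibodies. None of the 10 genes passed 1.5-fold in the *Hmga2*-/- Ctrl against the *Hmga2*+/+ Ctrl library, where 3.02% of expressed genes were higher and 2.76% lower. *Supt16* was higher by 10.8%, a log2 change of 0.15 (interval 0.12 to 0.17), and *Ssrp1* differed by 0.01 (interval -0.02 to 0.04). *H2afx*, the substrate of the phosphorylation described above, was lower by 15.1%, a log2 change of -0.24 (interval -0.33 to -0.15), and 14.0% of expressed genes were as low or lower. *Nap1l1* had 0.13 (interval 0.09 to 0.17), *Asf1a* 0.13 (interval 0.02 to 0.25) and *Daxx* 0.09 (interval 0.00 to 0.18), whereas *H2afy* and *Hira* both had -0.13. *H2afv* at -0.10 and *H2afz* at -0.04 had intervals on both sides of 0. The median was -0.01 over the 10 genes and -0.02 over expressed genes.

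Under TGFB1, no gene passed 1.5-fold between genotypes either, and 3.91% of expressed genes were higher and 2.79% lower in *Hmga2*-/- MEF. *Supt16* with -0.00 (interval -0.02 to 0.02) and *Ssrp1* with 0.03 (interval 0.00 to 0.06, and -0.01 after rescaling by the median ratio) were at nearly the same level. *Nap1l1* was higher by 21.0%, a log2 change of 0.27 (interval 0.24 to 0.31). *H2afv* was lower by 18.3%, a log2 change of -0.29 (interval -0.46 to -0.12), and 8.43% of expressed genes were as low or lower. *H2afx* had -0.11 (interval -0.20 to -0.02), *H2afz* -0.10 (interval -0.16 to -0.04) and *Hira* -0.10 (interval -0.20 to -0.00). *Asf1a*, *Daxx* and *H2afy* were between -0.07 and 0.05, with intervals on both sides of 0. The median over the 10 genes was -0.05, against 0.04 over expressed genes.

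The TGFB1 response itself was set against genotype as the log2 change in *Hmga2*-/- minus that in *Hmga2*+/+ MEF, with an approximate 95% counting interval and no test, since each condition has 1 library. This difference was -0.15 (interval -0.18 to -0.12) for *Supt16* and 0.02 (interval -0.02 to 0.06) for *Ssrp1*. It was 0.14 (interval 0.09 to 0.19) for *Nap1l1*, -0.16 (interval -0.29 to -0.04) for *Daxx* and 0.11 (interval 0.00 to 0.21) for *H2afy*. For *H2afv* it was -0.19 (interval -0.39 to 0.01), and 38.7% of expressed genes were at least as far from 0. That share was 49.3% for *Supt16*, 50.8% for *Nap1l1*, 45.9% for *Daxx* and 62.0% for *H2afy*, whose intervals did not reach 0. Rescaled by the median ratio, *Ssrp1* and *Hira* changed sign. The other 4 genes had intervals on both sides of 0. The value farthest from 0 was that of *H2afv*, and the median over expressed genes was 0.05.

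**Figure D3:**
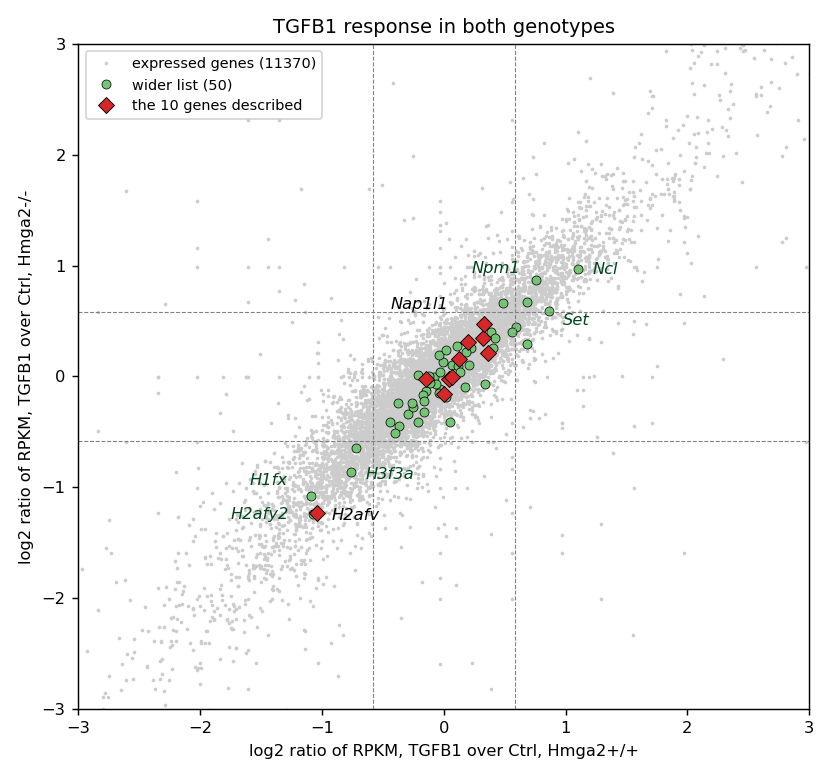
Log2 ratio of RPKM, TGFB1 over Ctrl, in *Hmga2*+/+ (horizontal) and *Hmga2*-/- MEF (vertical), 1 point per gene. Grey points are the 11370 expressed genes (180 of them fall outside the axes), green points the 50 genes of the wider list and red diamonds the 10 genes described, with dashed lines at 1.5-fold. *H2afv* lies beside *H2afy2* at the lower left, and the other 9 red diamonds lie inside the dashed lines.

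Several of the 10 genes have more than 1 transcript in the table, 26 in all, and transcripts of a gene share exons and reads. Both *H2afv* transcripts, which begin and end at the same positions, had a log2 change of -1.04 under TGFB1 in *Hmga2*+/+ MEF, and -1.24 and -1.17 in *Hmga2*-/- MEF. The 5 *Nap1l1* transcripts were at 46.3 to 102 RPKM in the *Hmga2*+/+ Ctrl library, with log2 changes of 0.32 to 0.36 in *Hmga2*+/+ and 0.47 to 0.49 in *Hmga2*-/- MEF. The 3 *Ssrp1* transcripts had 0.31 to 0.41 and 0.34 to 0.46. The 6 *H2afy* transcripts were at 8.21 to 37.2 RPKM in the *Hmga2*+/+ Ctrl library. Of these, 5 had log2 changes of 0.16 to 0.21 in *Hmga2*+/+ and 0.25 to 0.32 in *Hmga2*-/- MEF. The remaining one, uc007qsi.2, which ends at another position and is 4121 bases long, had 0.03 and 0.04.

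Some transcripts also contain sequence found in other genes. Of the 70-base windows of the *H2afz* reference transcript, 63.0% occurred without mismatch in 6 gene models elsewhere in the genome, among them *Gm13007*, *Gm6722* and *Gm8203*, and 24.0% of the *Nap1l1* windows occurred in *Gm4204*. For *H2afx*, 3.65% of windows occurred in replication-dependent H2A genes and other models elsewhere. Reads trimmed to fewer than 70 bases could match other genes more often. How the aligner placed such reads was not tested, so the levels of *H2afz* and *Nap1l1* are less certain. No window of *H2afv*, *Ssrp1* or *Daxx*, and none of *Supt16*, *H2afy*, *Asf1a* or *Hira* outside their own locus, was found in another gene. The *Hira* transcript shared 63.8% of its windows with the overlapping model *Gm28539* on the same strand. Counting by strand does not separate such reads, so the level of *Hira* is less certain too. *Supt16* overlapped *Rpgrip1* and *Asf1a* overlapped *Mcm9* on the opposite strand, in 20.0% and 64.6% of windows, where the strand-specific counting separates reads.

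A wider list of 50 genes of the same pathways, all of them expressed, was given by role. Under TGFB1, 6 of 50 rose (12.0%) and 4 fell (8.0%) in *Hmga2*+/+ MEF, and 5 rose and 4 fell in *Hmga2*-/- MEF, against the 12.1% and 17.7%, and 13.8% and 15.9%, of all expressed genes. The median log2 change of the list was -0.02 and -0.03. None of the 50 passed 1.5-fold between genotypes in either condition as deposited. Few of all expressed genes did, with 3.02% higher and 2.76% lower in Ctrl, and 3.91% and 2.79% under TGFB1. After rescaling by the median ratio, *H2afj* passed in Ctrl and *Prkdc* under TGFB1.

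Of 7 other histone variant genes, 3 fell in both genotypes, where 17.7% (*Hmga2*+/+) and 15.9% (*Hmga2*-/-) of all expressed genes fell. *H2afy2*, which encodes macroH2A2, fell from 13.4 to 6.39 RPKM in the *Hmga2*+/+ and from 12.6 to 5.36 RPKM in the *Hmga2*-/- cells, log2 changes of -1.07 (interval -1.20 to -0.94) and -1.24 (interval -1.38 to -1.10). The linker histone gene *H1fx* went from 29.7 to 14.0 and from 27.8 to 13.2 RPKM, log2 changes of -1.09 and -1.08. *H3f3a*, 1 of 2 genes for H3.3, went from 37.5 to 22.1 and from 34.5 to 19.0 RPKM, log2 changes of -0.76 and -0.86. *H3f3b*, the other H3.3 gene and the highest of this role, had 136, 147, 125 and 151 RPKM in the *Hmga2*+/+ Ctrl, *Hmga2*+/+ TGFB1, *Hmga2*-/- Ctrl and *Hmga2*-/- TGFB1 libraries and passed in no comparison. *H2afj*, named after its values were seen, rose in *Hmga2*+/+ MEF, from 4.59 to 7.34 RPKM, and was below 1.5-fold with a pseudocount of 1 RPKM.

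Of 6 other genes listed here as chaperones of H2A-H2B, which may also bind other histones, 4 rose in *Hmga2*+/+ and 3 in *Hmga2*-/- MEF. None fell. Over all expressed genes, 12.1% and 13.8% rose. The median log2 change of these 6 genes was 0.68 and 0.52. Nucleolin (*Ncl*), a protein of the nucleolus, rose from 87.5 to 187 RPKM in the *Hmga2*+/+ and from 103 to 202 RPKM in the *Hmga2*-/- cells, log2 changes of 1.10 (interval 1.08 to 1.11) and 0.97 (interval 0.95 to 0.99). Nucleophosmin (*Npm1*), another nucleolar chaperone and the highest of this role, went from 346 to 586 and from 370 to 678 RPKM, log2 changes of 0.76 and 0.87. *Set*, a relative of NAP1, went from 64.4 to 117 and from 81.5 to 123 RPKM, log2 changes of 0.86 and 0.59, the latter below 1.5-fold once libraries were rescaled by their median ratio. *Npm1* and *Ncl* are known foremost as factors of ribosome assembly. *Anp32b*, named after its values were seen, rose in *Hmga2*+/+ MEF from 99.6 to 150 RPKM, and its log2 change of 0.45 in *Hmga2*-/- MEF was below the threshold.

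Over all expressed genes, 12.1% rose and 17.7% fell in *Hmga2*+/+ MEF, and 13.8% rose and 15.9% fell in *Hmga2*-/- MEF. Of 19 other chaperones of H3-H4 and their partners, none rose and 1 fell, in both genotypes. This was *Tonsl*, which acts at replication forks and was named after its values were seen, with 8.61 and 5.25 RPKM in *Hmga2*+/+ and 7.52 and 4.80 RPKM in *Hmga2*-/- MEF, where it was below 1.5-fold with a pseudocount of 1 RPKM. *Dek* had the highest level of the role, with 210 to 252 RPKM. The partner of DAXX, *Atrx*, named after its values were seen, had 35.8, 31.0, 36.1 and 27.2 RPKM in the *Hmga2*+/+ Ctrl, *Hmga2*+/+ TGFB1, *Hmga2*-/- Ctrl and *Hmga2*-/- TGFB1 libraries and passed in no comparison.

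The complexes that exchange H2A.Z were represented by 11 genes, of which 1 rose in *Hmga2*+/+ and 2 rose in *Hmga2*-/- MEF. Over all expressed genes, 12.1% and 13.8% rose. *Ruvbl2*, an ATPase subunit of these complexes, went from 10.8 to 17.3 and from 12.4 to 19.8 RPKM, log2 changes of 0.68 and 0.67. Its partner *Ruvbl1*, named after its values were seen, rose in *Hmga2*-/- MEF from 19.3 to 30.5 RPKM and had a log2 change of 0.49 in *Hmga2*+/+ MEF. *Vps72*, which binds H2A.Z and had the highest mean level of this role, had 27.1 to 34.1 RPKM. None of the 7 kinases, phosphatases and readers of H2A.X rose or fell as deposited. Under TGFB1, 29.8% (*Hmga2*+/+) and 29.7% (*Hmga2*-/-) of all expressed genes rose or fell. *Atr*, named after its values were seen, had a log2 change of 0.56 under TGFB1 in *Hmga2*+/+ MEF and passed 1.5-fold once libraries were rescaled by their median ratio. *Baz1b*, a tyrosine kinase of H2A.X and the highest of the role, had 60.5 to 67.3 RPKM. The kinase *Atm*, named after its values were seen, had 17.7, 22.3, 17.1 and 16.3 RPKM in the *Hmga2*+/+ Ctrl, *Hmga2*+/+ TGFB1, *Hmga2*-/- Ctrl and *Hmga2*-/- TGFB1 libraries.

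**Figure D4:**
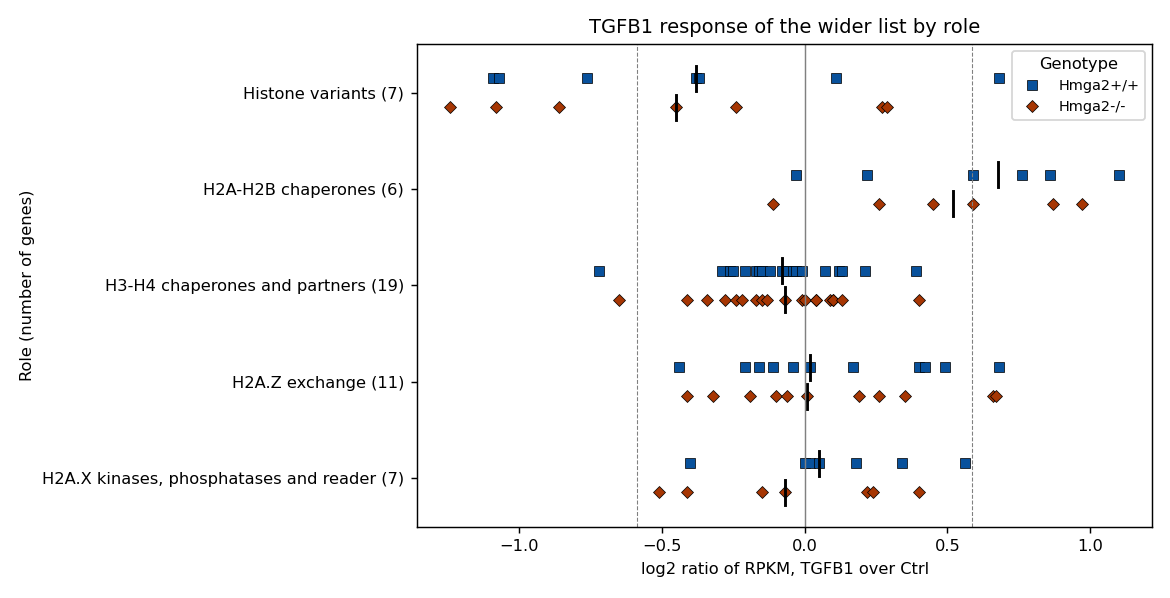
Log2 ratio of RPKM, TGFB1 over Ctrl, for the 50 genes of the wider list by role, 1 point per gene and genotype, with black bars at the median of each role and dashed lines at 1.5-fold. The genes listed as H2A-H2B chaperones have medians of 0.68 and 0.52, and the other histone variants medians of -0.38 and -0.45.

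In the 3 pairs of variant genes that encode the same or closely related histones, the less abundant gene fell under TGFB1 in both genotypes and the more abundant gene did not. These pairs were set side by side after their values were seen, so they are chosen examples. For macroH2A, which gene is less abundant depends on the transcript. In the *Hmga2*+/+ Ctrl library the *H2afy* transcript uc007qsi.2 had 8.21 RPKM, below *H2afy2* with 13.4 RPKM. The *H2afy* to *H2afy2* ratio went from 1.89 to 4.55 in *Hmga2*+/+ and from 1.83 to 5.33 in *Hmga2*-/- MEF. The *H3f3b* to *H3f3a* ratio went from 3.62 to 6.64 and from 3.62 to 7.94. The *H2afz* to *H2afv* ratio, given above, is the third of these.

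**Figure D5:**
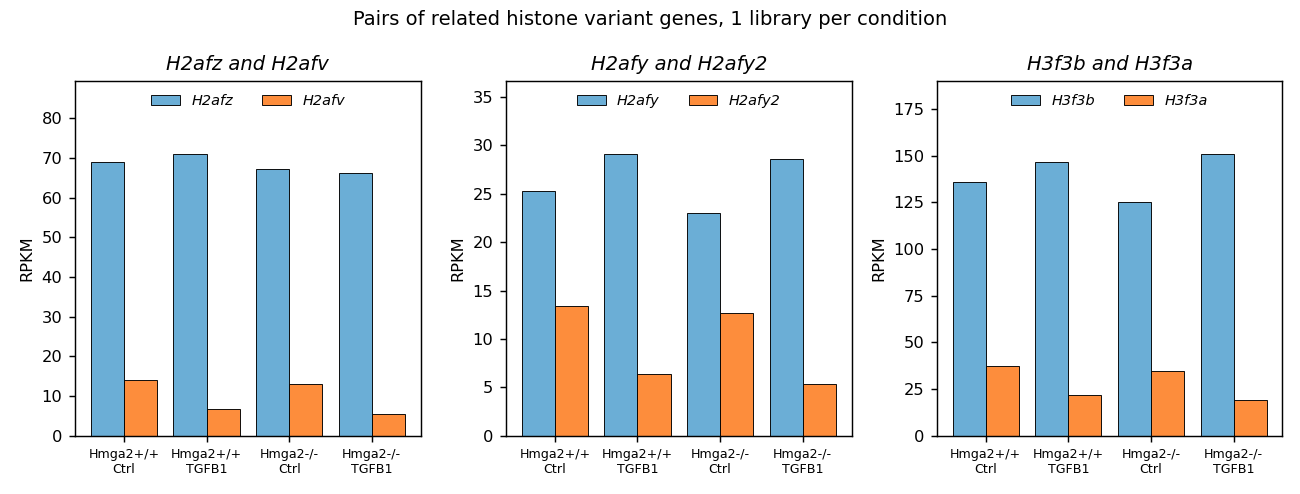
RPKM in the 4 libraries for 3 pairs of related histone variant genes, with bars from 0 and 1 library per condition. The orange gene (*H2afv*, *H2afy2* or *H3f3a*) is lower in both TGFB1 libraries than in both Ctrl libraries, at 5.55 and 6.79 against 13.1 and 14.0 RPKM for *H2afv*.

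Since *H2afz*, *H2afx* and several chaperones are known to follow cell division, 10 proliferation markers were examined beside them. Their summed level was 585 and 504 RPKM in the *Hmga2*+/+ Ctrl and TGFB1 libraries and 567 and 512 RPKM in the *Hmga2*-/- Ctrl and TGFB1 libraries. *Mki67* and *Top2a* weighed most in this sum, with 157 and 143 RPKM in the *Hmga2*+/+ Ctrl library. None of the 10 passed 1.5-fold under TGFB1 in *Hmga2*+/+ MEF, where 29.8% of all expressed genes did. In *Hmga2*-/- MEF, where 29.7% of all expressed genes did, *Mki67* fell from 166 to 103 RPKM and *Rrm2* rose from 33.1 to 55.3 RPKM. The median log2 change of the 10 markers was -0.20 in *Hmga2*+/+ and -0.05 in *Hmga2*-/- MEF. Their part in the results was not tested.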

How the data were processed

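Total RNA of MEF was sequenced, with 1 library (1 column of the deposited table) for each of 4 conditions, on a NextSeq500 with single reads of 75 bases from a stranded kit. The authors trimmed the reads (5 bases off the start, and bases of low quality) and mapped them to mm10 with HISAT2 2.1.0. They counted them strand by strand on UCSC known genes with HOMER and deposited RPKM with 3 decimals. Exons are the counted feature per the file headers, and genes per the methods of the study. The deposited table also gives the length of each transcript in bases. The paper speaks of sequencing in duplicates. Whether these were pooled into a column, and how many cultures lie behind each, is not given in the sources used here.

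Transcripts were assigned to GENCODE vM21 genes where at least 50% of the span lay in the gene on the same strand. Of 63759 transcripts 57708 (90.5%) were named, and the transcript with the longest gene body stood for a gene. A value of 0 RPKM was set to 0.001. Mapped reads per library were found as the depth that turns the RPKM of transcripts under 600 bases into whole numbers of reads, and 100% of the values tested (1270 to 1279 per library) lay within 0.1 of a whole read. The level of 3 reads on 1000 bases was 0.0524 to 0.0534 RPKM. Ratios of reads were given exact 95% Clopper-Pearson intervals. The steps were tested on simulated data. No count test was run, because there are no replicates. Python 3.11.15, numpy 2.4.6, pandas 2.3.3, scipy 1.17.1 and matplotlib 3.10.9 were used.

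The 10 genes and all lists were chosen with earlier results of these data known. Named were all 10 genes in every comparison; of the wider list, at most the 6 largest changes past 1.5-fold per comparison and the gene with the highest level of each role; and *Hmga2*, TGFB1 targets and proliferation markers as checks. Promoter windows matched 9 of the 10 genes. A further treatment marker is not reported here.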

Additional observations from a re-analysis of the deposited data

Results flagged for a closer look

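For 4 of the 10 genes the sign of a change differed between the 2 genotypes or the 2 treatments. With 1 library on each side none of these differences was tested. *Supt16* was higher in *Hmga2*-/- than in *Hmga2*+/+ MEF in the Ctrl libraries, with a log2 change of 0.15, and had -0.00 between the TGFB1 libraries. Under TGFB1, *H2afz* had 0.04 in *Hmga2*+/+ MEF but -0.02 where HMGA2 was lacking, and *Asf1a* had 0.07 and -0.01. *Daxx* had 0.00 and -0.16 in the same comparison, and between genotypes it had 0.09 in the Ctrl and -0.07 in the TGFB1 libraries. Each of these 10 values is below 1.5-fold, and in no pair do both values have counting intervals clear of 0. The intervals lie on both sides of 0 for both values of *H2afz* and *Asf1a*, for *Supt16* between the TGFB1 libraries, and for *Daxx* under TGFB1 in *Hmga2*+/+ MEF and between the TGFB1 libraries.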

How the results depend on the processing

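No paired analysis was possible because each condition has 1 library, and for the same reason no replicate could be left out. Of 160 log2 changes of the 10 genes under 4 alternatives (rescaling by the median ratio, a pseudocount of 1 RPKM, and 2 other choices of transcript), 151 stayed within the counting interval of the reported value, 9 moved outside it and none changed its side of 1.5-fold. The sign turned for 2 of them, *Ssrp1* between genotypes under TGFB1 after rescaling (from 0.03 to -0.01) and *Daxx* under TGFB1 in *Hmga2*+/+ MEF with its longest transcript (from 0.00 to -0.00). *H2afv* stayed between -1.24 and -0.94 in both TGFB1 comparisons. The largest shift was 0.27, for *H2afy* in *Hmga2*-/- MEF with its longest transcript. At a lower threshold, a log2 change of 0.32, 4 of the 10 genes passed under TGFB1 in *Hmga2*+/+ and 3 in *Hmga2*-/- MEF, where 53% and 53.1% of all expressed genes did. After rescaling, 1 gene of the wider list passed between genotypes in each condition (*H2afj* in Ctrl and *Prkdc* under TGFB1). The share of all genes past 1.5-fold, in the order WT TGFB1, KO TGFB1, KO Ctrl and KO TGFB1 against WT TGFB1, was 31.0%, 31.2%, 17.3% and 17.7% without a filter on low RPKM and 24.7%, 25.5%, 2.57% and 3.3% with at least 10 RPKM. Of 20 differences between genotypes, 3 moved outside their interval, all after rescaling (*Supt16*, *Ssrp1* and *Nap1l1*), and 2 changed sign with it, *Ssrp1* from 0.02 to -0.04 and *Hira* from 0.03 to -0.03. Each value of the 10 genes rests on at least 514 reads, and the spread between cultures is unknown.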
